A study of Mus musculus with 16 samples.

Results

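The comparison described here asked whether a ketogenic diet changed each gene by the same amount in liver tumors as in the liver tissue beside them. For every gene the log2 difference between tumor and nontumor tissue on the ketogenic diet (KD) was taken, and the same difference on the normal diet (ND) was subtracted from it. This difference of differences equals the diet effect in tumor minus the diet effect in nontumor liver, and it is called the interaction below. A positive interaction means that the change from ND to KD was more upward, or less downward, in tumor than in nontumor liver. All 13432 genes with a TPM of at least 1 (a level corrected for transcript length and library size) in at least 4 of the 16 libraries were tested, of 20601 genes listed.

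The samples came from 8 mice in which liver tumors were started by hydrodynamic delivery of plasmids, a rapid large-volume injection that carries DNA into hepatocytes. Each mouse received 19 µg of a human N-Ras plasmid, 1 µg of a human c-Myc plasmid and 2 µg of a plasmid for the Sleeping Beauty transposase, which inserts the oncogenes into the genome. All 4 groups carry these plasmids, so nontumor liver is not liver of untreated mice, and the labels used here give neither strain, sex nor age. The ketogenic diet, with 0.1% carbohydrate, 89.5% fat and 10.4% protein, was given from week 4 for 4 weeks, the other mice ate a normal diet, and tissue was taken at week 8. The groups are ND nontumor, KD nontumor, ND tumor and KD tumor, with 4 libraries of polyadenylated RNA each. Both tissues come from the same 8 mice, but the labels do not tie a library number to a mouse, so p-values measure the spread between these libraries.

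Each library held 3518966 to 14074042 reads over the listed genes, as recovered from the TPM values. The listed genes held 49.96% to 88.45% of all TPM in 15 libraries and 7.38% in ND nontumor library 4, which also had the fewest reads. All values below are therefore TPM divided by 1 factor per library (the median ratio to the geometric mean over the 12119 genes above 0 in every library), called rescaled TPM, and the differences are on log2(rescaled TPM + 1). The added 1 understates the change of genes with low values. Hepatocyte genes were high in every library: Alb, the gene of serum albumin, had 11820 to 81790 rescaled TPM and Hnf4a, a hepatocyte transcription factor, 183.8 to 346.7. Gpc3, a cell-surface proteoglycan used as a liver tumor marker, had 9.62 to 46.6 rescaled TPM in the tumor libraries and 0.0827 to 4.24 in the nontumor libraries. Afp, the fetal liver marker alpha-fetoprotein, had 5.37 to 409.5 in tumor and 0.492 to 3.36 in nontumor libraries.

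A ketogenic diet supplies almost no sugar, and the liver then oxidises fatty acids and releases ketone bodies for other organs. Carbohydrate and insulin normally drive the liver's own fat synthesis, of which stearoyl-CoA desaturase, encoded by Scd1, is a central enzyme. Hepatocytes also divide labor along the blood stream of the liver lobule: cells near the central vein carry out glutamine synthesis and much of drug metabolism under Wnt signalling, while cells near the portal vein carry out urea and glucose synthesis.

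Of the genes tested, 83 passed an adjusted p of 0.05 for the interaction (limma with Benjamini-Hochberg adjustment), which is 0.618% of the 13432. The diet difference was more positive in tumor for 28 of them (0.208%) and more negative in tumor for 55 (0.409%). Across all genes the median interaction was 0.00 and 50.4% were positive, the median size was 0.37 and the median standard error 0.34. At an unadjusted p of 0.05, 2413 genes passed (18%), 1161 higher (8.64%) and 1252 lower (9.32%). The 2 diet effects that the interaction subtracts were unequal in extent: 2109 genes (15.7%) passed for diet in tumor, 7.21% higher and 8.49% lower, and 7 (0.0521%) for diet in nontumor liver, 0.00744% higher and 0.0447% lower. In nontumor liver 8.9% passed at an unadjusted p of 0.05, and in tumor 32.9%. Because these comparisons enter the interaction, their overlap with it is fixed in part by construction.

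For most of the 83 genes the diet difference passed in tumor. For 77 genes it passed in tumor and not in nontumor liver. For 3 (Scd1, Cyp2c69 and Ugt2b37) it passed in nontumor liver and not in tumor, and for 3 (Cyp2c40, Kynu and Rnf186) in neither tissue alone. The adjusted threshold was harder to meet in nontumor liver, where 7 genes passed in all, beside 2109 in tumor. Passing in tumor alone is thus not a lack of change in nontumor liver. The diet difference was larger in size in tumor for 72 of the 83. Asap3, among the 77, changed by -0.85 in tumor and 1.03 in nontumor liver. Of the 28 genes with a positive interaction, 24 had their lowest group mean in ND tumor. Of the 55 with a negative one, 42 had their highest group mean in ND tumor. The gap between tumor and nontumor was smaller on KD than on ND for 57 of the 83 genes, beside 46.9% of all genes tested. For 38 of the 83 the sign of the gap differed between the diets. On ND the gap itself passed for 65 of the genes, beside 14.5% of all genes higher in tumor and 14.2% lower. On KD it passed for 48, beside 16.3% and 16.2%. The interaction is the difference between these gaps, so genes called on it are selected for unlike gaps. These counts and those of the lowest and highest group mean therefore describe the 83 genes and lend no support. The plot of the diet difference in tumor against that in nontumor liver shows the positive genes up and to the left of the diagonal and the negative genes mainly straight below the centre.

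**Figure D1:**
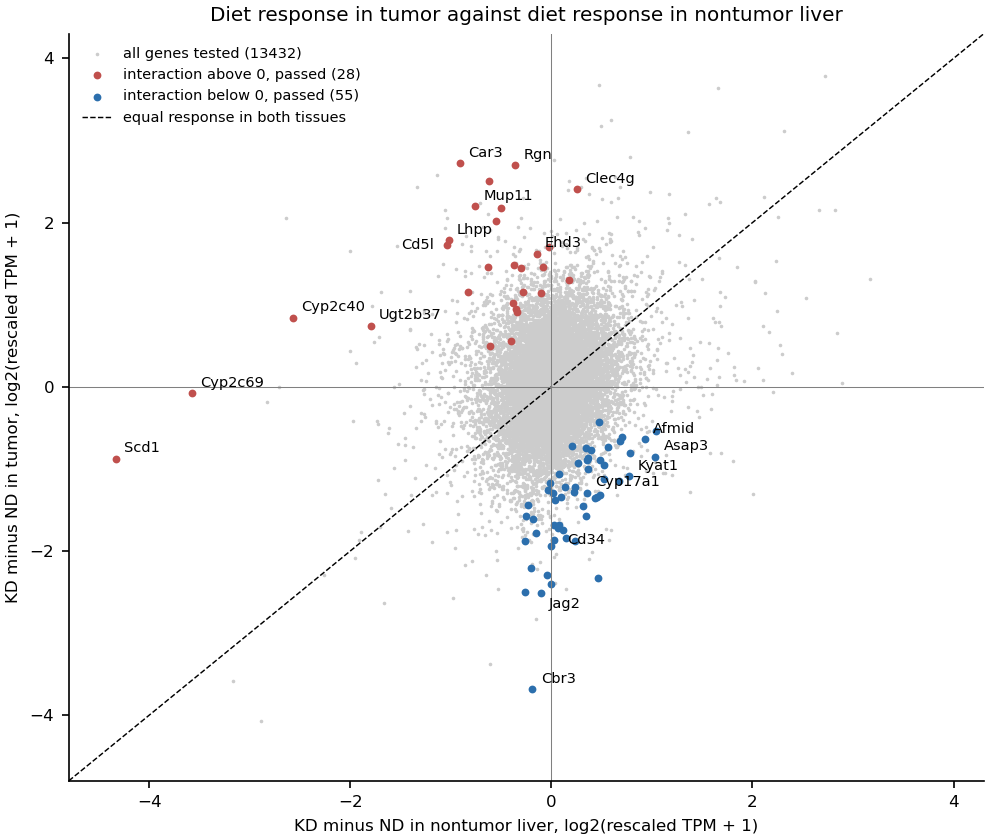
Each point is a gene, with the KD minus ND difference in nontumor liver on the x axis and in tumor on the y axis, both as log2(rescaled TPM + 1); red and blue points are the 28 and 55 genes that passed the interaction test. Scd1 and Cyp2c69 lie far left and near 0 on the y axis, while Cbr3 lies far down and near 0 on the x axis.

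Scd1, which introduces the double bond that turns saturated into monounsaturated fatty acids, fell on KD in nontumor liver and kept a level of at least 209 rescaled TPM in the tumors. On ND the nontumor libraries held 1068, 997, 884 and 944 rescaled TPM, and on KD 22.8, 76.3, 50.2 and 56.4. The tumors held 1031, 1143, 648 and 453 on ND and 479, 668, 454 and 209 on KD. All 4 KD nontumor libraries were thus below all 12 others, and the 2 tumor groups overlapped. The diet difference was -4.33 ± 0.39 (log2 ± SE, n = 4 libraries per group) in nontumor liver, with an adjusted p of 6.3e-05, and -0.87 ± 0.39 in tumor, with an adjusted p of 0.129. The interaction was 3.46 ± 0.55, with an adjusted p of 0.0176. The test of the difference itself thus passed, and it passed in all 16 fits that left out 1 library, with estimates from 3.12 to 3.79. Of 24 lipogenesis genes tested, Scd1 was the one that passed in limma. At an unadjusted p of 0.05, 6 were higher and 0 lower, beside 8.64% and 9.32% of all genes. Fasn, the fatty acid synthase, had an interaction of -0.26 ± 0.55 and Srebf1, a transcription factor of fat synthesis genes, -0.28 ± 0.54.

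A pair of neighbouring cytochrome P450 genes and a glucuronosyltransferase also fell on KD in nontumor liver by their estimates, but with low levels in the tumors on either diet. Cyp2c69, a gene of the Cyp2c family of drug and fatty acid oxidising enzymes, held 20.6, 28.1, 39.0 and 12.4 rescaled TPM in ND nontumor liver and 2.06, 2.34, 0 and 0.641 in KD nontumor liver. In the tumors it held 1.86, 0.579, 1.36 and 0 on ND and 0.394, 1.01, 0.607 and 0.911 on KD. The ND nontumor libraries lay above all others, so its interaction of 3.5 ± 0.57 (adjusted p = 0.0176) stands beside a diet difference of -3.57 in nontumor liver and -0.08 in tumors that were already low. Cyp2c40 had an interaction of 3.41 ± 0.65 (adjusted p = 0.0302) and Ugt2b37, which conjugates steroids and drugs to glucuronic acid, 2.54 ± 0.44 (adjusted p = 0.0242). Their tumor means were 1.27 and 0.49 rescaled TPM on ND and 2.56 and 1.475 on KD. In nontumor liver the means were 14.5 and 10.4 on ND and 1.65 and 2.32 on KD. The tumor differences of 0.84 and 0.74 did not pass in limma (adjusted p = 0.215 and 0.108). The nontumor difference of Cyp2c40, -2.57, just missed (adjusted p = 0.0534). The sequences of these genes are close to those of other family members, so counting may have split their reads and their values are uncertain. Mouse livers express Cyp2c40 and Cyp2c69 more in females, and the labels give no sex. Of the 12 female-biased liver genes tested, these 2 passed higher and Cyp17a1 passed lower, beside 0.208% and 0.409% of all genes. The median interaction of this list was -0.70, with 4 members positive and 8 negative. At an unadjusted p of 0.05 in limma, 3 were higher and 3 lower.

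Genes of hepatocytes around the central vein moved with diet mainly in the tumors, where 15 of 27 rose on KD (7.21% of all genes did), beside 1 in nontumor liver (0.00744%). The members of this and the other lists were chosen with earlier results of these data known, so counts of them lend no independent support. Of the 27 genes tested, 5 passed the interaction test as higher (Lhpp, Gulo, Oat, Rgn and Glul) and 0 as lower, beside 0.208% and 0.409% of all genes. At an unadjusted p of 0.05, 16 were higher and 0 lower, and 24 of the 27 interactions were positive, with a median of 1.08 beside 0.00 over all genes. The median diet difference of the list was 0.94 in tumor and -0.06 in nontumor liver, and 0 members fell in either. The median log2 difference of tumor minus nontumor was -2.77 on ND and -1.69 on KD. Their summed level was 267 to 427 rescaled TPM in ND tumor and 979 to 2562 in KD tumor, groups that do not overlap. The same sum was 5049 to 8911 in ND nontumor and 3727 to 7355 in KD nontumor liver, which overlap. In these pieces of tissue, fewer cells of a type and less RNA per cell cannot be told apart.

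Lhpp, a phosphatase that removes phosphate from histidine and is known as a liver tumor suppressor, shared the lowest adjusted p of the interaction, 0.0136, with Cyp17a1 and Rhbdl2. It held 57.8, 99.8, 125.9 and 74.2 rescaled TPM in ND nontumor liver and 49.7, 43.8, 28.2 and 49.3 in KD nontumor liver. The tumors held 4.90, 3.11, 5.03 and 2.08 on ND and 15.6, 16.5, 9.87 and 19.3 on KD. Neither pair of groups overlapped, with the KD libraries higher in tumor and lower in nontumor liver. The diet difference was 1.79 ± 0.28 in tumor (adjusted p = 0.0016) and -1.02 ± 0.28 in nontumor liver (adjusted p = 0.208), giving an interaction of 2.81 ± 0.40. It passed in all 16 fits that left out 1 library, with estimates from 2.61 to 2.99.

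Gulo, the last enzyme of vitamin C synthesis in mice, held 23.8, 38.8, 38.0 and 36.3 rescaled TPM in ND tumor and 105.4, 124.5, 70.3 and 90.5 in KD tumor. The tumor groups did not overlap, and KD tumor remained below ND nontumor liver, which held 142.8 to 218.1. In KD nontumor liver Gulo held 124.3 to 150.4, so its highest KD tumor library lay just inside that range. The interaction of 1.85 ± 0.29 (adjusted p = 0.0176) passed in all 16 fits that left out 1 library.

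Oat, which breaks down ornithine, rose in tumor from 6.27, 15.3, 10.9 and 8.38 rescaled TPM on ND to 49.9, 47.7, 37.9 and 142.3 on KD. Its interaction was 3.13 ± 0.61 (adjusted p = 0.0337). Rgn, a calcium-binding lactonase that also acts in vitamin C synthesis, rose from 12.2, 42.1, 34.1 and 23.7 to 157.2, 142.6, 120.8 and 318.6, with an interaction of 3.06 ± 0.60 (adjusted p = 0.0337). Both were highest in KD tumor library 4, and for both every KD tumor library lay above every ND tumor library. Glul, glutamine synthetase, the classic marker of the hepatocytes next to the central vein and a Wnt target, rose from 32.8, 34.7, 32.7 and 26.1 to 90.7, 100.3, 96.1 and 134.9, with an interaction of 1.73 ± 0.36 (adjusted p = 0.0409). Its diet difference in nontumor liver was -0.03 ± 0.25.

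These calls differ in how much they rest on single libraries. Oat passed in 7, Rgn in 8 and Glul in 4 of the 16 fits that left out 1 library, and the highest adjusted p values were 0.0807 for Oat and 0.101 for Glul without ND nontumor library 2 and 0.0825 for Rgn without ND nontumor library 3. The estimates kept their direction, from 2.72 to 3.39 for Oat, 2.73 to 3.29 for Rgn and 1.57 to 1.91 for Glul.

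Members of the list that missed the threshold varied widely, and the 4 named next, Cyp2e1, Cyp1a2, Axin2 and Lgr5, were chosen after their values were seen. Cyp2e1, an enzyme that oxidises alcohol and acetone, had a diet difference of 3.17 in tumor (adjusted p = 0.0017) and 0.49 in nontumor liver, with an interaction of 2.68 ± 0.72 that missed the threshold (adjusted p = 0.0878). Its ND tumor libraries held 24.2, 64.8, 91.5 and 39.2 rescaled TPM and its KD tumor libraries 297.4, 241.1, 416 and 1347, so these groups did not overlap. Cyp1a2, which metabolises caffeine and many drugs, had 2.68 ± 0.72 (adjusted p = 0.0879). Axin2, the general feedback target of Wnt signalling, had 0.60 ± 0.39 (adjusted p = 0.432) and Lgr5, a Wnt-dependent receptor, 0.25 ± 0.35 (adjusted p = 0.74). Cyp7a1, which sets the pace of bile acid production, is the member whose diet effect passed in both tissues, by 1.54 in tumor and 2.23 in nontumor liver, and its interaction of -0.70 ± 0.35 did not pass (adjusted p = 0.309). In the tumors on ND Cyp7a1 was listed at 0 in 3 libraries and at 0.0325 rescaled TPM in the other one. The list of 21 periportal genes had a median interaction of 0.15, with 0 members higher and 1, Uroc1, lower.

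**Figure D2:**
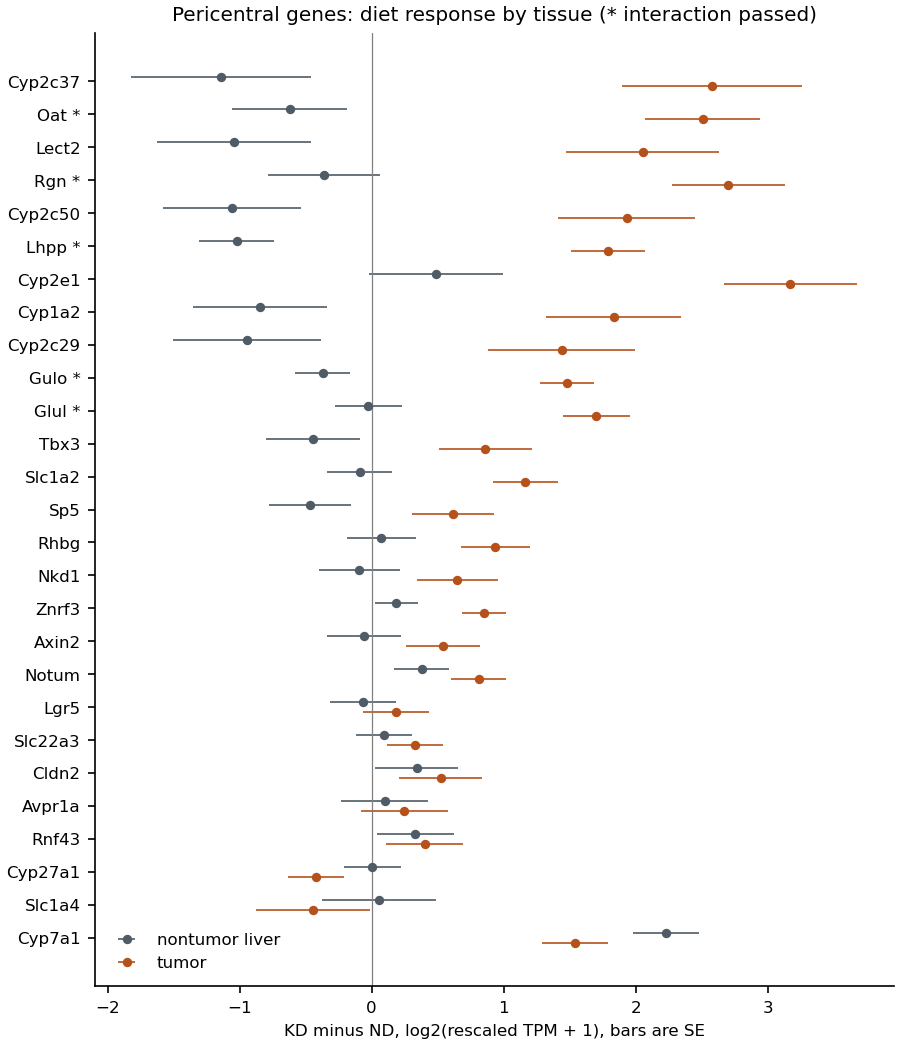
KD minus ND difference on log2(rescaled TPM + 1) for the 27 pericentral genes in nontumor liver (grey) and tumor (orange), with points at the estimates and bars of 1 SE, ordered by interaction; asterisks mark an interaction with an adjusted p below 0.05. The tumor point lies to the right of the nontumor point in 24 of the 27.

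Mup11, a major urinary protein that carries pheromones, showed a wide gap between the tissues. It held 4161, 7416, 7523 and 2740 rescaled TPM in ND nontumor liver and 3567, 2944, 1782 and 4142 in KD nontumor liver, with overlap. It held 7.78, 7.41, 7.71 and 12.6 in ND tumor and 75.8, 34.3, 35.3 and 38.9 in KD tumor, without overlap. The interaction was 2.96 ± 0.50 (adjusted p = 0.0225), and it passed in 13 of the 16 fits that left out 1 library. Mup genes are near-identical copies, so the value of a single member is uncertain. Of 29 male-biased liver genes tested, most of them Mup genes, 1 passed higher and 0 lower, beside 0.208% and 0.409% of all genes. At an unadjusted p of 0.05 in limma, 17 were higher and 0 lower, beside 8.64% and 9.32% of all genes. The median interaction of the list was 1.47. The sex of the mice is not given in the labels, and its part in these values was not tested.

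Other metabolic and secreted products of hepatocytes also passed as higher. Car3, an abundant carbonic anhydrase of hepatocytes and fat cells, rose in tumor from 26.4, 74.6, 20.3 and 90.1 rescaled TPM on ND to 166.8, 198.1, 272.7 and 846.7 on KD. The lowest KD tumor library was above the highest ND tumor library, and library 4 on KD stood apart from the other 3. In nontumor liver Car3 held 592 to 1775 on ND and 409.1 to 898.8 on KD, so KD tumor library 4 lay inside both nontumor ranges and the other 3 below them. The difference of tumor minus nontumor was -4.72 on ND (adjusted p = 9.31e-06) and -1.08 on KD (adjusted p = 0.135), and the interaction was 3.64 ± 0.76 (adjusted p = 0.0409). It passed in 5 of the 16 fits that left out 1 library, with a highest adjusted p of 0.101. Adipoq, a fat cell marker, was listed at 0 in all 8 tumor libraries, and the summed level of the adipose, exocrine pancreas, muscle and gut list was 185.5 to 264.6 in ND tumor, 398.9 to 553.5 in KD tumor, 274.3 to 474.3 in ND nontumor and 258.4 to 533.1 in KD nontumor liver. The part of these tissues in the Car3 difference was not tested.

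Ang, the ribonuclease angiogenin, and Rnase4, a second secreted ribonuclease, are transcribed from a shared start on chromosome 14 and overlap over most of their length in GRCm38 (Rnase4 at chr14:51091077-51106151, Ang at chr14:51091150-51102009, both on the plus strand). Reads in shared exons cannot be assigned to 1 of them, so they count as 1 observation. Ang rose in tumor from 9.32, 24.4, 24.1 and 11.7 rescaled TPM on ND to 80.5, 42.7, 64.0 and 151.7 on KD, and the groups did not overlap. Its interaction was 2.68 ± 0.54 (adjusted p = 0.0363), and that of Rnase4 was 2.58 ± 0.56 (adjusted p = 0.0492). The shared promoter is shown because a single window serves 2 of the 28 genes: the 250 bases before the start in RefSeq (GRCm38.p6, chr14:51090827-51091076, plus strand, 52.4% G and C, no part marked) read as follows.
Ang and Rnase4 shared promoter: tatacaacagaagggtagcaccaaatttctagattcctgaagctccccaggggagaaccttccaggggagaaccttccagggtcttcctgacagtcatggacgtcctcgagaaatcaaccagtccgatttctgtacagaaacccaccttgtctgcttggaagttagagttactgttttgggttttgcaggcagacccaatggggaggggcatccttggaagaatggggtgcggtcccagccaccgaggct

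Promoters were searched for a few fixed motifs, and none of these was common to the genes that passed. RefSeq windows from 250 bases before to 50 after the start were available for 20 of the 28 higher and 47 of the 55 lower genes. The direct repeat bound by PPAR factors with RXR (spaced by 1 base), TGATGCAAT (ATF4 with C/EBP), TCACNCCAC (SREBP), TGACGCAA (an ATF-type element) and the endoplasmic reticulum stress element (a CCAAT box and CCACG), searched on both strands, were in 0 of these windows. They were in 0.04%, 0.19%, 1.24%, 0.49% and 0.12% of all 32851 windows. Of the 10291 tested genes with a window, 4, 17, 154, 103 and 19 held them in at least 1 window. At such rates few or no hits are likely among this many genes, so the 0 cannot set them apart from other genes. CACGTG, the E-box read by MYC and by clock factors, was in the windows of 2 higher genes, Trmt61a and Armcx4, and 1 lower gene, Prpf40b. These were 10% of the higher and 2.1% of the lower genes with a window, beside 11.5% of the tested genes with a window. Counted by window, the E-box was in 7.15% of all windows. A match is a match of letters only, and these 3 genes were named for their match after their values were seen.

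Of 25 endothelial markers tested, 3 passed as higher and 1 as lower (0.208% and 0.409% of all genes did). The 3 are Clec4g, Ehd3 and Stab2, genes of the fenestrated endothelium of liver sinusoids, and the 1 is Cd34, a marker of continuous capillary endothelium. At an unadjusted p of 0.05, 7 were higher and 9 lower, beside 8.64% and 9.32% of all genes. For diet in tumor alone, 7 rose and 8 fell, and in nontumor liver 0 passed in limma (1 higher and 1 lower at an unadjusted p of 0.05). No list of sinusoidal or of other vessel genes was set, so kinds of vessel were not compared. The summed level of the list was 366.4 to 551.0 rescaled TPM in ND tumor and 260.3 to 420.3 in KD tumor, with overlap.

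Ehd3, which shapes membranes in endocytosis, held 1.52, 2.47, 3.02 and 2.05 rescaled TPM in ND tumor and 9.83, 9.43, 8.14 and 8.33 in KD tumor. Its nontumor libraries held 11.8 to 21.2 on ND and 10.9 to 18.8 on KD. The tumor groups did not overlap and the nontumor groups did. The interaction was 1.77 ± 0.29 (adjusted p = 0.0176), and it passed in 15 of the 16 fits that left out 1 library. Clec4g, a lectin of sinusoidal cells, rose from 3.09, 1.77, 3.26 and 1.32 in ND tumor to 24.4, 15.7, 13.6 and 13.4 in KD tumor, and its interaction was 2.16 ± 0.46 (adjusted p = 0.044). Stab2, the receptor that clears hyaluronan from blood, rose from 3.26, 6.55, 4.89 and 5.15 to 20.6, 9.34, 10.4 and 10.4, with 1.44 ± 0.32 (adjusted p = 0.0492). In both genes the tumor groups did not overlap, and KD tumor library 1 was the highest.

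Cd34 went the other way in the tumors. It held 12.9, 7.05, 4.95 and 9.35 rescaled TPM in ND tumor and 1.98, 2.00, 1.24 and 0.960 in KD tumor, while all 8 nontumor libraries lay between 0.214 and 1.08. The interaction was -1.89 ± 0.36 (adjusted p = 0.0303). Pecam1, the adhesion protein CD31 of all endothelium, held 35.7, 17.2, 21.1 and 19.8 in ND tumor and 8.21, 8.34, 5.10 and 3.71 in KD tumor, beside 4.88 to 8.18 in nontumor liver. Its interaction was -1.44 ± 0.34 (adjusted p = 0.0605). Dnase1l3 and Gpr182, which sinusoidal endothelium expresses, had 2.14 ± 0.49 and 1.98 ± 0.45 (adjusted p = 0.057 for both). Pecam1, Dnase1l3 and Gpr182 missed the threshold and were chosen after their values were seen. Over the whole list, the gap between tumor and nontumor liver was smaller on KD than on ND for 22 of the 25 markers, beside 46.9% of all genes tested. Of these 22, 12 were lower and 10 higher in ND tumor than in ND nontumor liver. The gap was larger on KD for Tek, Lyve1 and Stab1, of which Lyve1 and Stab1 are also genes of sinusoidal endothelium. This is a count with no test.

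Single libraries weighed on these calls as well. Clec4g passed in 4, Stab2 in 3 and Cd34 in 7 of the 16 fits that left out 1 library. Their highest adjusted p values were 0.106, 0.114 and 0.0772, each without ND nontumor library 2.

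**Figure D3:**
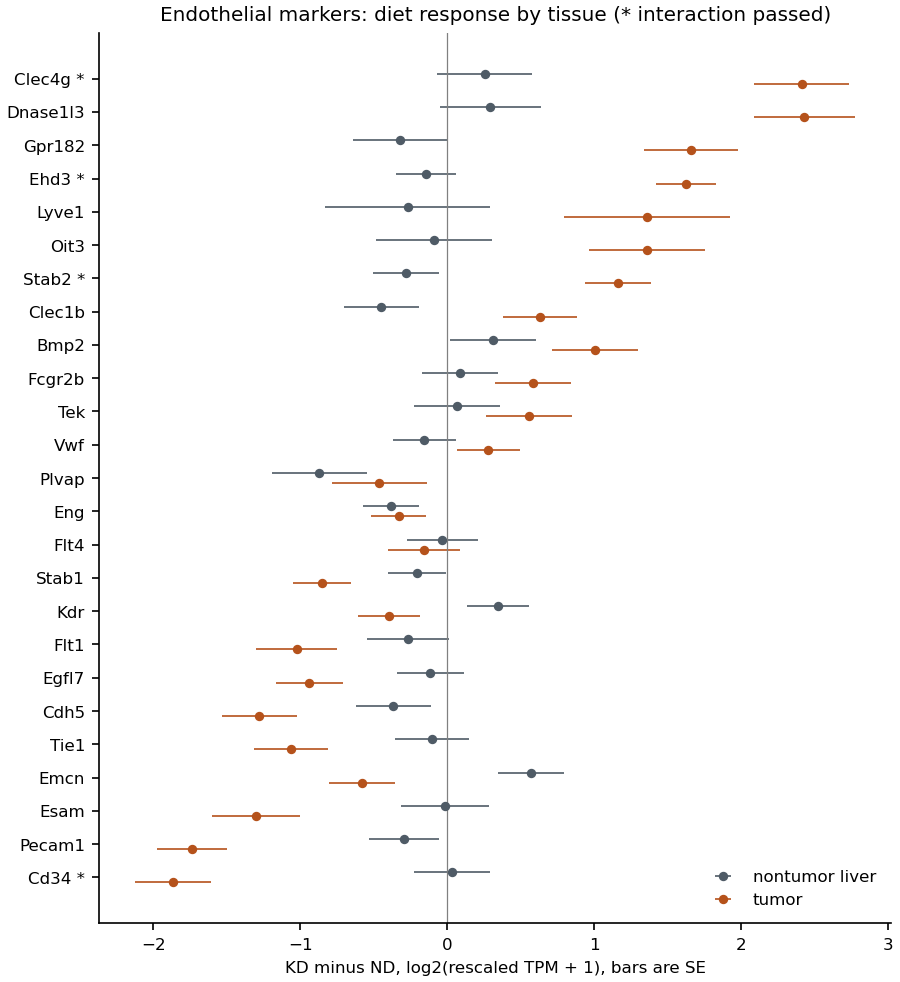
KD minus ND difference on log2(rescaled TPM + 1) for the 25 endothelial markers in nontumor liver (grey) and tumor (orange), with bars of 1 SE, ordered by interaction; asterisks mark an adjusted p below 0.05. In tumor Clec4g and Ehd3 near the top lie to the right of 0 and Cd34 and Pecam1 at the bottom to the left, while nontumor points stay within 1 unit of 0.

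Several further genes with known roles in blood vessels passed as lower, and they were chosen after their values were seen, except Jag2. Jag2, a ligand of Notch receptors, fell in tumor from 16.4, 8.29, 3.85 and 13.8 rescaled TPM on ND to 0.618, 0.970, 1.25 and 0.530 on KD, and stayed at 0.160 to 0.794 in nontumor liver. Its interaction was -2.41 ± 0.44 (adjusted p = 0.0263). Outside ND tumor Jag2 met the minimum TPM in 2 KD tumor libraries and 1 ND nontumor library, too few to be tested. It was thus tested only because of its ND tumor libraries, so its low p value lends no support. Notch4, the Notch receptor of endothelium, held 28.5, 18.3, 11.9 and 22.2 in ND tumor and 4.74, 4.56, 5.19 and 3.69 in KD tumor, beside 3.20 to 5.72 in nontumor liver. These KD tumor values fall inside the nontumor range, and the interaction was -1.62 ± 0.30 (adjusted p = 0.0263). Hey1, a transcriptional target of Notch, had -1.76 ± 0.33 (adjusted p = 0.0281). Nrp1, a co-receptor for VEGF and semaphorins, had -1.32 ± 0.25 (adjusted p = 0.0302). Its level overlapped between ND tumor (18.4 to 30.7) and ND nontumor liver (26.7 to 32.9), and it fell to 5.15 to 8.80 in KD tumor.

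Smad6, an inhibitor of BMP signalling, passed as higher (1.25 ± 0.27, adjusted p = 0.0462) and was also chosen after its values were seen. It rose in tumor from 2.38, 1.98, 1.67 and 3.09 rescaled TPM on ND to 8.31, 5.95, 5.54 and 5.22 on KD, and it held 7.70 to 12.6 in nontumor liver.

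Among markers of Kupffer cells, the resident macrophages of the liver, Cd5l passed as higher. This secreted protein of tissue macrophages held 35.8, 56.5, 55.4 and 56.8 rescaled TPM in ND nontumor liver and 35.7, 17.7, 20.3 and 25.1 in KD nontumor liver. In the tumors it held 1.25, 7.09, 11.3 and 2.93 on ND and 21.6, 14.6, 21 and 12.6 on KD. The groups did not overlap in either tissue, and they were ordered in opposite directions. Its interaction was 2.77 ± 0.56 (adjusted p = 0.0391), with a call in 5 of the 16 fits that left out 1 library and a highest adjusted p of 0.0919. Clec4f, a lectin made by Kupffer cells in the mouse that was chosen after its values were seen, had 1.72 ± 0.38 (adjusted p = 0.0511). It held 4.88, 6.88, 10.1 and 6.85 in ND tumor, 22.8, 7.01, 15.4 and 14.9 in KD tumor, 111.2 to 152.2 in ND nontumor and 62.0 to 94.4 in KD nontumor liver. The list of 15 markers tested had 1 member higher, 0 lower and a median interaction of 0.65. At an unadjusted p of 0.05 in limma the list had 4 higher and 1 lower, beside 8.64% and 9.32% of all genes. Its summed level was 619.5 to 731.6 rescaled TPM in ND nontumor and 461.2 to 706.7 in KD nontumor liver, 343.7 to 457.6 in ND tumor and 297.1 to 517.2 in KD tumor, so the sums overlapped between diets.

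Chaperones of the endoplasmic reticulum, which fold secreted proteins, were on the positive side in all 21 members tested, with a median interaction of 1.05. In limma 1 of them passed as higher (Hyou1) and 0 as lower, with 16 higher and 0 lower at an unadjusted p of 0.05, beside 8.64% and 9.32% of all genes. Hyou1, a large chaperone of the Hsp70 class, held 39.8, 56.6, 49.96 and 47.4 rescaled TPM in ND nontumor liver and 49.3, 44.4, 33.1 and 25.1 in KD nontumor liver. In the tumors it rose from 11.6, 15.95, 14.7 and 14.1 on ND to 27.9, 24.6, 33.6 and 32.7 on KD, without overlap. Its interaction was 1.40 ± 0.28 (adjusted p = 0.034), and 8 of the 16 fits that left out 1 library called it. Hspa5, the main Hsp70 chaperone there, had 1.38 ± 0.40 (adjusted p = 0.106), from a difference of 0.46 in tumor and -0.91 in nontumor liver. Hspa5 was chosen after its values were seen. The list's median was 0.46 in tumor and -0.55 in nontumor liver. Its mean log2(rescaled TPM + 1) per library was 6.94, 6.84, 5.98 and 6.11 in KD nontumor libraries 1 to 4, beside 6.70 to 7.25 in ND nontumor liver, 6.08 to 6.58 in ND tumor and 6.73 to 6.99 in KD tumor. KD nontumor libraries 1 and 2 thus lay inside the ND nontumor range, libraries 3 and 4, which hold fewer reads, below it, and the tumor groups did not overlap. Inhbe, a hepatocyte-secreted activin subunit chosen after its values were seen, had 1.75 ± 0.30 (adjusted p = 0.0225) and rose in tumor from 19.4, 18.9, 17.4 and 11.8 to 40.2, 38.1, 55.4 and 56.7.

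Genes with a negative interaction were led by Cbr3, a carbonyl reductase that is a target of the antioxidant factor NRF2. It held 36.8, 55.2, 43.0 and 14.1 rescaled TPM in ND tumor and 2.25, 2.49, 1.55 and 0.775 in KD tumor. The nontumor libraries held 0.441, 2.45, 1.81 and 0.375 on ND and 1.10, 1.42, 0.355 and 0.655 on KD. Every ND tumor library was thus above all 12 others, among which the 3 remaining groups overlapped. The interaction was -3.50 ± 0.55 (adjusted p = 0.0176), from a difference of -3.68 in tumor and -0.19 in nontumor liver. It passed in all 16 fits that left out 1 library, with the least in the fit without ND tumor library 1 (adjusted p = 0.0499). Cbr3 was the one of 24 NRF2 targets tested that passed, and their median interaction was -0.12. At an unadjusted p of 0.05 in limma, 2 of them were higher and 3 lower, beside 8.64% and 9.32% of all genes.

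A further set resembled Cbr3 in being high in ND tumor alone. Sema7a, a membrane-bound semaphorin, fell in tumor from 19.5, 6.54, 4.60 and 13.02 rescaled TPM on ND to 0.490, 1.42, 2.16 and 0.648 on KD, and was at 0 to 0.830 in nontumor liver, with an interaction of -2.79 ± 0.49 (adjusted p = 0.0253). Map3k6, a stress-activated kinase, fell from 100.5, 41.9, 102.0 and 57.2 to 13.3, 20.5, 9.99 and 6.63, with -2.23 ± 0.45 (adjusted p = 0.034). In both genes the tumor groups did not overlap. Nontumor liver held 5.53 to 11.9 rescaled TPM of Map3k6.

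Of the 55 genes with a negative interaction, 9 were below 1 rescaled TPM in the means of both nontumor groups, so that their interaction is the diet effect in the tumor with little added from nontumor liver. For 2 of the 83 genes, Rhbdl2 and Ccl11, the minimum TPM was met in the 4 ND tumor libraries alone. They were tested only because they are high in that group, so their low p values lend no support, and neither could be tested when an ND tumor library was left out. Rhbdl2, a rhomboid protease, was listed at 0 in all 8 nontumor libraries, at 4.06, 4.00, 2.85 and 2.43 in ND tumor and at 0, 0.0564, 0.464 and 0 in KD tumor. Ccl11, the eosinophil attractant eotaxin, was listed at 0 in 7 of the 8 nontumor libraries and at 0.511 in the other one. Its tumor libraries held 4.298, 2.56, 4.29 and 4.38 on ND and 0, 0.160, 0.958 and 0.719 on KD. Both were chosen after their values were seen. Mcf2l held 17.6, 11.2, 6.04 and 11.9 in ND tumor and 2.80, 1.39, 3.46 and 3.05 in KD tumor. Mroh3 held 9.75, 7.35, 15.5 and 8.18 in ND tumor and 2.46, 0.697, 1.00 and 1.02 in KD tumor. Outside ND tumor, Mroh3 met the minimum TPM in 2 KD tumor libraries alone, too few to be tested. Its low p value therefore lends no support either. For all 4 genes the tumor groups did not overlap. The interactions were -1.94 for Rhbdl2, -1.63 for Ccl11, -1.86 for Mcf2l and -2.25 for Mroh3, with adjusted p values of 0.0136, 0.0409, 0.0492 and 0.0263.

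Ndufa4l2, a mitochondrial protein induced under low oxygen, fell in tumor from 16.8, 20.95, 14.8 and 46.5 rescaled TPM on ND to 6.02, 5.06, 6.86 and 4.26 on KD, inside the nontumor range of 3.21 to 7.25. Its interaction was -1.99 ± 0.41 (adjusted p = 0.0409). Pkn3, a kinase downstream of phosphoinositide 3-kinase, had -1.92 ± 0.37 (adjusted p = 0.0312). Glt1d1, a glycosyltransferase-like protein, differed from these in being highest in nontumor liver: 33.0 to 63.9 there, 13.8, 19.3, 32.3 and 20.1 in ND tumor, and 2.80, 1.66, 5.45 and 6.08 in KD tumor, with an interaction of -2.003 ± 0.42 (adjusted p = 0.044). For Glt1d1 the gap between tissues was thus wider on KD.

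In a second set of lower genes the estimated diet difference pointed up in nontumor liver and down in tumor. The interaction call favours opposite signs, so such a set among genes that passed follows in part from the selection. For Asap3, Cyp17a1, Kyat1, F11, Uroc1 and Soat2, described next, the nontumor difference did not pass in limma. Asap3, which regulates Arf GTPases and cell movement, held 11.9, 9.72, 12.6 and 22.9 rescaled TPM in ND nontumor liver and 32.3, 24.6, 30.9 and 28.1 in KD nontumor liver. In tumor it held 12.1, 9.83, 9.64 and 9.01 on ND and 5.35, 5.70, 4.66 and 4.92 on KD. The diets did not overlap in either tissue. The tumor difference of -0.85 ± 0.20 passed (adjusted p = 0.0124), the nontumor difference of 1.03 ± 0.20 did not (adjusted p = 0.085), and the interaction was -1.88 ± 0.28 (adjusted p = 0.0176), with a call in all 16 fits that left out 1 library.

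Cyp17a1, a steroid hydroxylase and lyase, held 52.6, 34.1, 50.1 and 46.8 rescaled TPM in ND tumor and 18.1, 18.1, 18.6 and 17.0 in KD tumor. In nontumor liver it held 8.92, 8.56, 6.76 and 7.64 on ND and 7.50, 11.6, 11.6 and 11.8 on KD, with overlap through KD library 1. Its diet difference in nontumor liver was 0.36 ± 0.17 and did not pass in limma (adjusted p = 0.561). Its interaction was -1.65 ± 0.24 (adjusted p = 0.0136), and it passed in all 16 fits that left out 1 library. Both tumor groups lay above both nontumor groups, so the gap was smaller on KD but not closed.

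Kyat1 is an aminotransferase of kynurenine that also splits cysteine conjugates. It held 156.7, 188.6, 251.8 and 251.1 rescaled TPM in ND nontumor liver and 318.7, 327.4, 405.7 and 381.1 in KD nontumor liver. In tumor it held 744.8, 779.2, 678.2 and 585.5 on ND and 364.8, 246.1, 394.2 and 319.2 on KD. On KD the tissues overlapped, and on ND every tumor library was above every nontumor library. The interaction was -1.86 ± 0.30 (adjusted p = 0.0176). Other enzymes around kynurenine, a product of tryptophan breakdown, did not move as 1 group: Kynu, which cleaves kynurenine, passed as higher (1.12 ± 0.24, adjusted p = 0.0462), and Afmid, which forms kynurenine and was chosen after its values were seen, passed as lower (-1.57 ± 0.29, adjusted p = 0.0263).

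**Figure D4:**
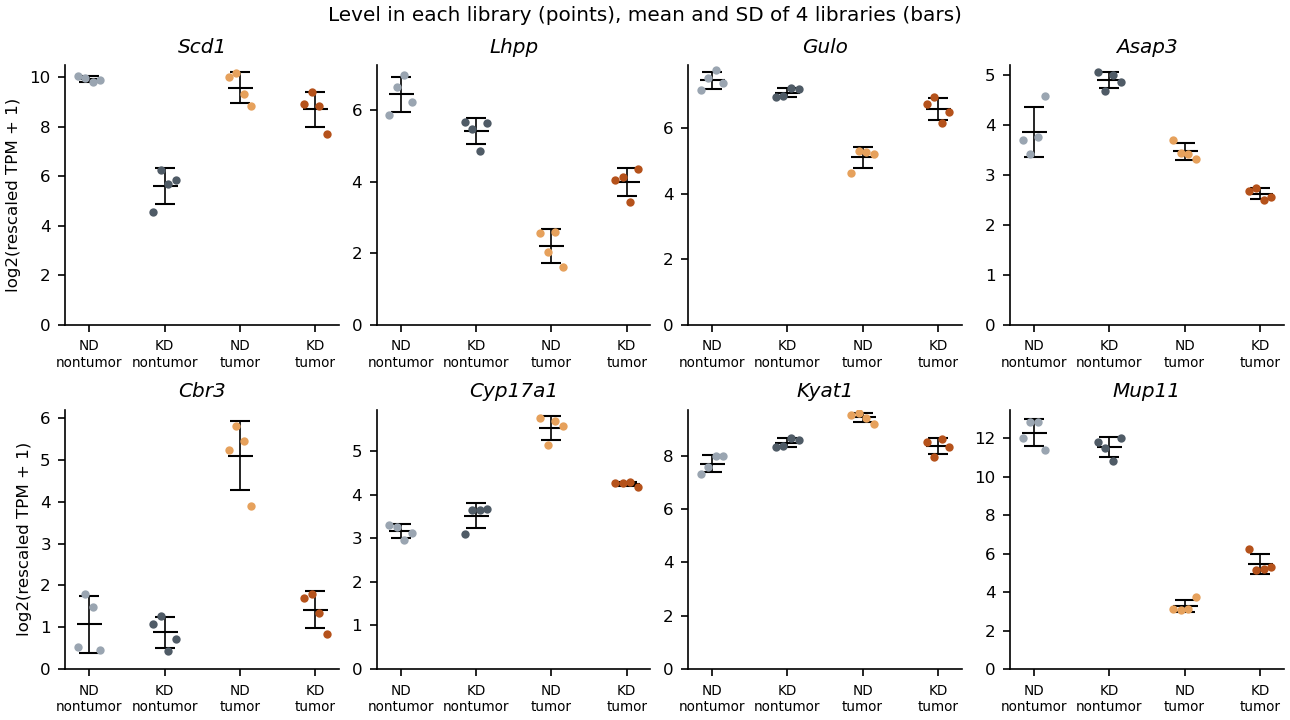
Level of 8 genes as log2(rescaled TPM + 1) in each of the 16 libraries (points), with the mean and SD of the 4 libraries of each group (bars). Scd1 is low in KD nontumor liver alone, and Cbr3 is high in ND tumor alone. Lhpp, Asap3 and Kyat1 have diet differences of opposite sign in the 2 tissues. Those in nontumor liver did not pass in limma (adjusted p = 0.208, 0.085 and 0.205).

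F11, coagulation factor XI, and Uroc1, an enzyme of histidine breakdown, followed the shape of Kyat1. Their diet differences in nontumor liver, 0.43 and 0.52, did not pass in limma (adjusted p = 0.636 and 0.504). F11 held 313.3, 258.1, 214.9 and 153.3 rescaled TPM in ND tumor and 134.1, 78.7, 85.7 and 66.5 in KD tumor, beside 63.0 to 77.2 in ND and 83.4 to 106.6 in KD nontumor liver, and its interaction was -1.79 ± 0.32 (adjusted p = 0.0263). It was the one of 32 complement and coagulation genes that passed, in a list whose median was 0.45. Uroc1 held 426.1 to 658.1 in ND tumor and 186.6 to 342.7 in KD tumor, with -1.47 ± 0.32 (adjusted p = 0.0462). Soat2, which esterifies cholesterol and was chosen after its values were seen, had -1.79 ± 0.38 (adjusted p = 0.0462), from 285.7, 229.2, 195.5 and 128.6 in ND tumor and 144.1, 69.2, 68.0 and 57.5 in KD tumor. In Soat2 the tumor groups overlapped through KD library 1, and the nontumor diet difference of 0.45 did not pass in limma (adjusted p = 0.682).

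Further genes were chosen after their values were seen. Gpd2, the mitochondrial glycerol phosphate dehydrogenase, rose in tumor from 2.55, 3.26, 1.17 and 2.65 rescaled TPM on ND to 5.61, 8.41, 9.70 and 9.23 on KD, above the 4.91 to 6.77 of nontumor liver in 3 of 4 libraries, with an interaction of 1.54 ± 0.29 (adjusted p = 0.0263). Dpp4, the peptidase CD26, had 1.13 ± 0.25 (adjusted p = 0.0492), and Tnfrsf11b, the decoy receptor osteoprotegerin, 2.08 ± 0.43 (adjusted p = 0.0409). Ppard, a nuclear receptor for fatty acids, fell in tumor from 20.7, 13.9, 14.3 and 17.2 to 5.43, 6.27, 5.50 and 4.40 and held 5.85 to 10.1 in nontumor liver, with -1.21 ± 0.24 (adjusted p = 0.034). Als2cl (-1.44 ± 0.26), Tle2, a Groucho-family co-repressor (-1.37 ± 0.24), Fmo4, a flavin monooxygenase (-1.31 ± 0.25), and Tcirg1, a subunit of the proton pump of lysosomes (-1.15 ± 0.25), had adjusted p values of 0.0263, 0.0263, 0.0312 and 0.0484.

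Genes of ketone and fatty acid metabolism rose with diet in the tumors, but none of the 3 lists held a gene that passed the interaction test. For diet in tumor 18 of 27 fatty acid oxidation genes, 10 of 31 PPAR alpha targets and 5 of 10 ketone genes rose and 0 fell, beside 7.21% and 8.49% of all genes. The PPAR alpha and ketone lists share 1 gene. In nontumor liver 0 of them passed in limma (6, 7 and 2 higher and 0, 3 and 1 lower at an unadjusted p of 0.05), with median differences of 0.29, 0.30 and 0.27 beside 0.94, 0.72 and 0.87 in tumor. In limma 0 of 10 ketone genes, 0 of 27 fatty acid oxidation genes and 0 of 31 PPAR alpha targets passed for the interaction. At an unadjusted p of 0.05, 3, 6 and 11 of them were higher and 0 lower, beside 8.64% and 9.32% of all genes. Cpt1a, which admits fatty acids into mitochondria, had an interaction of 1.24 ± 0.30 (adjusted p = 0.0697). It held 39.2, 42.1, 45.4 and 37.9 in ND tumor and 83.8, 96.2, 124.2 and 155.5 in KD tumor, beside 43.4 to 77.1 and 56.1 to 85.6 in ND and KD nontumor liver. Without ND nontumor library 4 its adjusted p was 0.0289.

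Further metabolic genes set for display also missed the threshold, with wide errors for some. Bdh1, which makes and uses the ketone body beta-hydroxybutyrate, had 1.02 ± 0.44, Acadm, an acyl-CoA dehydrogenase, 0.49 ± 0.31, and Pdk4, which limits entry of pyruvate into mitochondria, 1.23 ± 0.54. Cyp4a14, a PPAR alpha target, had 1.98 ± 0.92, and Fgf21, a fasting hormone of the liver, -0.26 ± 0.38. The gluconeogenic enzymes Pck1 and G6pc had 0.90 ± 0.49 and 0.80 ± 0.91. Pklr, liver pyruvate kinase, had 0.24 ± 0.66. The adjusted p values of these 8 genes ran from 0.243 for Bdh1 to 0.885 for Pklr, so an interaction was not detectable at this spread. The mouse genes Nras and Myc had -0.11 ± 0.21 (adjusted p = 0.828) and -1.05 ± 0.56 (adjusted p = 0.335). The delivered oncogenes are human, and these values are of the mouse genes as listed.

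In KD nontumor liver some of these genes differed widely between libraries of 1 group. G6pc held 107.4, 95.3, 1151 and 955.5 rescaled TPM in KD nontumor libraries 1 to 4, Fasn 46.1, 50.4, 121.8 and 179.1, Pklr 23.7, 33.3, 139.5 and 144.1, and Srebf1 60.5, 64.6, 216.5 and 228.0. Libraries 1 and 2 were low and libraries 3 and 4 high in all 4 genes. These libraries also differed in depth, with 11039834, 10968126, 6132073 and 5676970 reads. The part of depth in this split was not tested.

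The plot of list medians places the whole set of lists side by side. Positive medians were largest for red blood cell genes (1.60, 7 tested, 0 passed in limma, 4 higher at an unadjusted p of 0.05), male-biased genes and pericentral genes. Nuclear-encoded subunits of oxidative phosphorylation had a median of 0.95, with 39 of 40 positive, 0 passing in limma and 16 higher at an unadjusted p of 0.05. For cytosolic ribosomal proteins the median was 0.86, with all 49 positive, 0 passing in limma and 12 higher at an unadjusted p of 0.05. Of all genes tested, 50.4% were positive, 0.208% passed as higher and 8.64% were higher at an unadjusted p of 0.05. In KD nontumor libraries 1 to 4 the mean log2(rescaled TPM + 1) was 7.25, 7.15, 5.80 and 6.42 for oxidative phosphorylation and 7.76, 8.08, 6.6 and 6.79 for ribosomal proteins. The ND nontumor libraries held 6.12 to 6.99 and 7.09 to 7.82. Libraries 1 and 2 were again apart from libraries 3 and 4, here with the higher values, and the medians of both lists average over that split. Both lists consist mainly of short transcripts. With the trends of the values in transcript length and in G and C content removed in each library, an alternative chosen after seeing the data, the medians were 0.62 and 0.57, that of the chaperones 0.92 and that of the pericentral genes 1.25. On the deposited TPM without rescaling, where the median interaction of all tested genes was -0.67, the medians were 0.00 for oxidative phosphorylation, -0.13 for ribosomal proteins, 0.05 for chaperones, 0.54 for pericentral and 0.58 for male-biased genes. All of these lay above the median of all genes, but the sign of the ribosomal list turned. The summed level of red blood cell genes was 269.1 to 1376 rescaled TPM in ND tumor, 472.2 to 3292 in KD tumor, 1188 to 6631 in ND nontumor and 566.8 to 2137 in KD nontumor liver. The blood content of the pieces thus varied within and between groups, and its part in other results was not tested. Mitosis genes had a median of -0.05, with 0 of 24 passing in limma and 0 at an unadjusted p of 0.05.

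**Figure D5:**
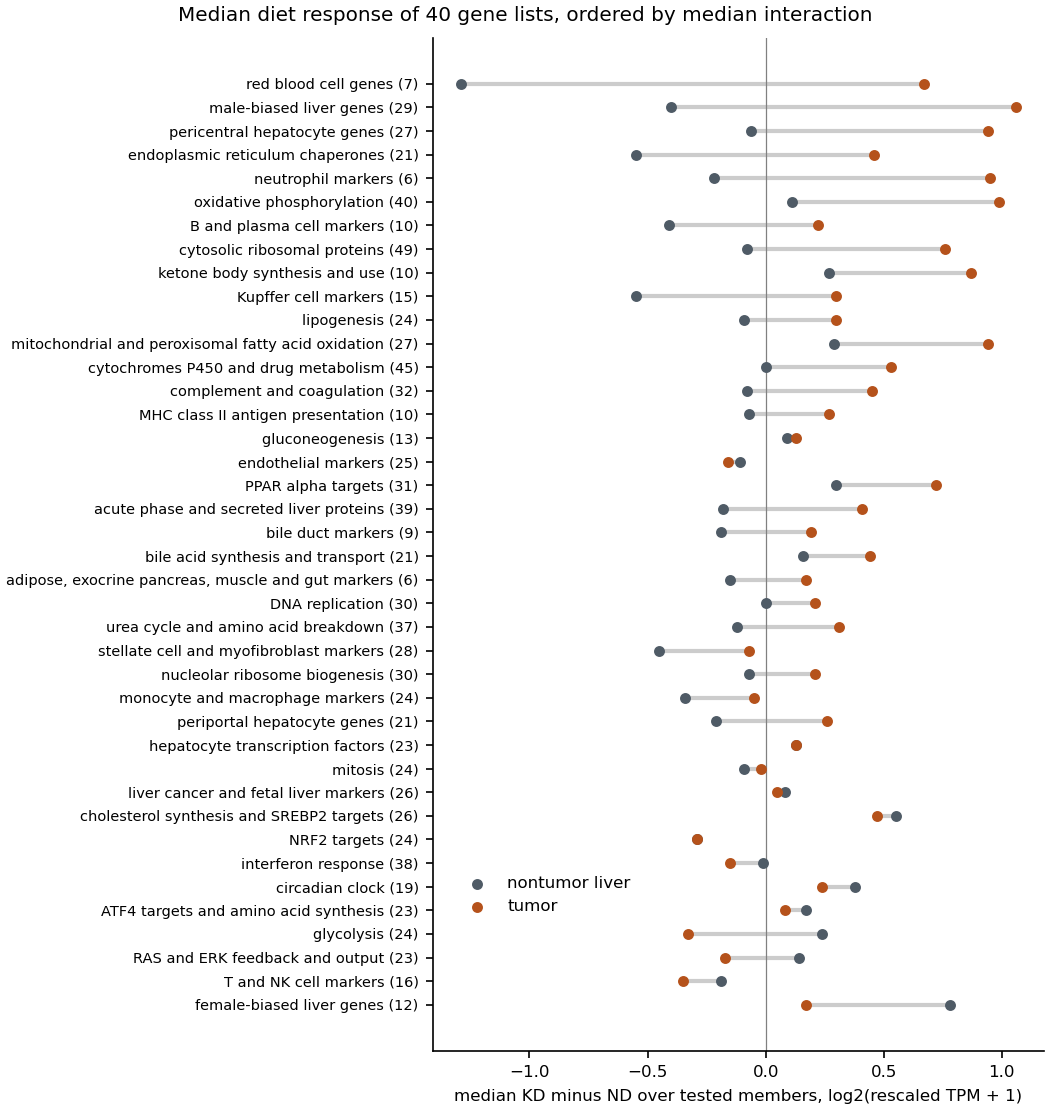
Median KD minus ND difference on log2(rescaled TPM + 1) over the tested members of 40 gene lists, in nontumor liver (grey) and tumor (orange), ordered by the lists' median interaction from the highest at the top; the number tested is in parentheses. In the lists at the top the tumor point lies well to the right of the nontumor point, and for mitosis genes the 2 points nearly coincide.

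Transcript length and G and C content of the genes that passed are given as medians, a description with no test. The median transcript length was 2605.5 bases for the 28 higher genes, 3461 for the 55 lower and 3086 for all tested genes, and the median share of G and C was 47.99%, 55.97% and 49.92%. With the trends in length and G and C removed, 54 of the 82 genes that could be tested again still passed.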

How the data were processed

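RNA-seq was made from tumor and nontumor liver of 8 mice, as 16 libraries in 4 groups of 4 taken from the sample titles. The authors deposited 1 table of TPM per gene. The submitters' processing notes name FastQC, HISAT2, SAMtools, featureCounts and the genome build mm10, and their versions and the way TPM was computed are not given in the sources used here. The deposited TPM values of a gene are whole multiples of the worth of 1 read, within 0.001 reads, so relative depth could be recovered from them. Within the 4 groups no library was a copy of another, with a smallest chi-square per degree of freedom of 11.6. No mitochondrially encoded gene is listed.

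TPM values were divided by median-of-ratios factors, log2(value + 1) was taken, and genes with a TPM of at least 1 in at least 4 libraries were kept. limma (version 3.58.1, R version 4.3.3) with an intensity trend was fitted to all 4 groups, with Benjamini-Hochberg adjustment over all 13432 genes and a threshold of 0.05. The fitting code was tested on simulated data. The tables describe 40 gene lists, and the members and lists were chosen with earlier results of these data known. Named genes are the 12 largest interactions and the 6 smallest p values per direction (passing also without ND nontumor library 4, with a mean of at least 5 rescaled TPM in some group), up to 4 passing members per list, 21 set genes, and 17 genes chosen after their values were seen. Cyp2e1, Cyp1a2, Axin2, Lgr5, Pecam1, Dnase1l3, Gpr182, Clec4f and Hspa5, list members without a call, were also chosen after their values were seen. A few genes named by this rule are not reported here. Positions are from GENCODE on GRCm38, which had 1 match for 19991 of 20601 symbols. Alternatives were scaling, pseudocount, filter, library weights, a replicate block, leaving out each library, voom on the recovered reads and removal of length and GC trends. Precision rests on 4 libraries per group, with 3518966 to 14074042 recovered reads each.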

Additional observations from a re-analysis of the deposited data

Results flagged for a closer look

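For 13 of 183 sets of 1 named gene in 1 group of 4 libraries, 1 library stood apart from the other 3 by a gap larger than Dixon's 95% critical value, where chance gives about 1 in 20. In KD tumor library 4, Car3 held 846.7 and Oat 142.3 rescaled TPM, both above the other 3. In KD tumor library 1, Mup11 held 75.8, Stab2 20.6 and Soat2 144.1, also above the other 3. Among ND tumor libraries, Mup11 held 12.6 in library 4 and Cyp2c40 3.98 in library 2, above the others, while Gulo held 23.8 in library 1 and Ccl11 2.56 in library 2, below them. Among ND nontumor libraries, Als2cl held 116.3 in library 4 and Gpd2 6.77 in library 2, above the others, and Cd5l held 35.8 in library 1, below them. In KD nontumor library 1, Cyp17a1 held 7.50, below the other 3. The diet response itself differed between tissues, by the interaction test, for the 83 genes described above.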

How the results depend on the processing

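The direction of all 52 named genes that passed was the same in every alternative that could test them, and each lost its call in at least 1. On the deposited TPM without rescaling, 2 genes were higher and 12 lower, and 5 of the 83 still passed. With the listed genes scaled to 1 common sum, 34 were higher and 508 lower. These scalings moved the median interaction of all genes to -0.67 and -0.45, and the share of calls that were higher from 33.7% to 14.3% and 6.3%. Deposited TPM without ND nontumor library 4 gave 29 higher and 100 lower (22.5% higher). A pseudocount of 0.1 gave 21 and 35, no filter 10 and 22, a minimum of 5 TPM 46 and 74, and library weights 146 and 240. With length and GC trends removed, a choice made after seeing the data, 26 were higher and 33 lower (44.1% higher). Voom on recovered reads, also chosen after seeing the data, gave 28 and 53. Upper-quartile factors gave 28 and 56, and a log2 size of at least 1 gave 27 and 53. Why the counts moved was not tested.

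Leaving out 1 library gave 4 to 62 higher and 5 to 128 lower genes. The totals were 9 without ND nontumor 2, 14 without ND nontumor 3, 47 without ND nontumor 1 and 190 without ND nontumor 4; 51, 24 and 17 without KD nontumor 2, 3 and 4; 35, 34 and 16 without KD tumor 2, 3 and 4; and 11 and 53 without ND tumor 1 and 2. All 83 genes (81 where 1 ND tumor library was left out) kept their sign in these fits, 6 passed in all 16 and 50 in fewer than 8. The 6 are Lhpp, Scd1, Gulo, Cyp17a1, Asap3 and Cbr3. Of the 18 named genes that missed the threshold, Cpt1a passed in 3 alternatives.

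The labels do not say whether equal replicate numbers mark 1 mouse, and correlations with 4 libraries per group cannot decide it. Correlations of same-numbered libraries ran from -0.112 to 0.164, and 1 of 8 tumor libraries correlated best with its own number. With a fixed replicate block 13 genes were higher and 19 lower, and with a random replicate block 21 and 44. Of the 83 genes, 26 still passed with the fixed block and 65 with the random block.

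With 4 libraries per group and a median standard error of 0.34, an interaction of the median size cannot be separated from the spread, so a gene that missed the threshold is not shown to respond alike in both tissues. Genes below about 1 TPM in a tissue have differences understated there.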

Other observations

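Of the 82 genes that passed and have a position, 8 pairs lay within 200 kb of each other, and 6 of these pairs had interactions of the same sign. This is a description with no test, and the pairs were found after the values were seen. Oat and Lhpp lie 34.2 kb apart on chromosome 7 (3.13 and 2.81), Cyp2c40 and Cyp2c69 30.0 kb apart on chromosome 19 (3.41 and 3.5), and Pkn3 and Kyat1 94.1 kb apart on chromosome 2 (-1.92 and -1.86). Map3k6 and Sytl1, the synaptotagmin-like gene beside it, are 161 bases apart on chromosome 4, end to end on opposite strands (-2.23 and -1.71), so that reads past the end of either gene could be counted in the other without strand information. Dock6 and Rgl3, both regulators of small GTPases, lie 116 kb apart on chromosome 9 (-1.43 and -1.23), and Rnase4 and Ang overlap. The remaining pairs, Inhbe with Ndufa4l2 and Trmt61a with Ppp1r13b, had interactions of opposite sign.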
